A study of Danio rerio with 9 samples.

Results

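The genes vax1, vax2, pax2a, pax2b, ntn1a and ntn1b, which mark or act in the optic stalk and the choroid fissure of the eye, were followed in 9 single zebrafish embryos (Danio rerio). They were chosen by symbol, and all 6 were found among the 22337 genes of the deposited tables. The tested embryos were 5 with coloboma (numbers 3, 4, 5, 6 and 7), a gap left where the choroid fissure does not close. They were set against 4 embryos labelled normal (numbers 3, 4, 6 and 7). Every embryo came from a mating of parents that each carried one copy of the alleles zic2aGBT133 and zic2bUW1127. Both groups were raised at 29 °C and sampled at about 25 hours post fertilization, with RNA made from each embryo separately. The labels gave no genotype for any embryo, so either group may hold several genotypes. The columns of the normal embryos carried the tag WT, and whether it names a genotype or a normal phenotype was not said.

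The optic stalk joins the optic cup to the forebrain, and the choroid fissure is a groove along the ventral cup and stalk whose edges must meet and fuse. Hedgehog signals from the ventral midline promote stalk fate and expression of vax and pax2 genes at the expense of retina. Vax1 and Vax2 are homeodomain transcription factors of the ventral eye, Vax1 also of the ventral forebrain. Pax2a and Pax2b are paired-domain factors of the stalk and fissure edges, and Pax2a is also needed at the midbrain-hindbrain boundary. Netrin 1 is a secreted laminin-like guidance protein, made at the fissure edges and abundantly in the floor plate of the neural tube. The libraries were made from whole embryos, so a level sums all these places, and fewer cells of a type and less RNA per cell cannot be told apart.

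Total counts ran from 20461180 to 59233104 in coloboma and from 40951722 to 54681474 in normal embryos, the lowest being coloboma embryo 5. Coloboma embryo 3 stood apart in eye and forebrain genes: its log2 level, averaged over 15 lens genes, was 3.44 below the normal mean (a value of -3.44), while the remaining coloboma embryos had 0.14 to 0.61. Values of the vax and pax2 genes and of the eye, forebrain, midbrain-hindbrain boundary and ear lists are also given without it. Across the genome 21293 genes passed the filter on low counts, the 6 genes among them. An adjusted p under 0.05 (edgeR quasi-likelihood test, Benjamini-Hochberg over all genes tested) was reached by 44 genes, or 0.207%, with 17 higher (0.0798%) and 27 lower (0.127%) in coloboma embryos. None of the 6 genes was among them. The count was 235 without coloboma embryo 5, 21 without coloboma embryo 4 or normal embryo 3, 25 without normal embryo 6 and 27 without normal embryo 7. When only library size was used for scaling, 12 genes were higher and 33 lower, and DESeq2, with its own size factors, called 367 higher (1.75% of the genes it tested) and 211 lower. In the zebrafish assembly GRCz12tu the 6 genes lie on chromosomes 17 (vax1), 7 (vax2), 13 (pax2a), 12 (pax2b), 6 (ntn1a) and 3 (ntn1b), none of them the chromosome of zic2a (9) or of zic2b (1).

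The vax genes had the largest differences of the 6, both toward lower levels in coloboma embryos, and neither passed the test over all genes. For vax2 the level in every coloboma embryo lay below that in every normal embryo, at 0.505 times the normal level in the fit. For vax1 the fitted level was 0.593 times the normal one, but the groups overlapped. The pax2 and netrin genes had fitted levels between 0.925 and 1.07 times the normal ones.

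The normalised level of vax2 (CPM, counts scaled to a common library size with TMM factors) was 0.540 in coloboma embryo 3, 0.951 in 4, 1.38 in 5, 0.992 in 6 and 0.852 in 7, against 2.48 in normal embryo 3, 1.60 in 4, 1.87 in 6 and 1.45 in 7. The highest coloboma embryo thus stayed under the lowest normal embryo, with a narrow gap between coloboma embryo 5 and normal embryo 7. Such a separation toward lower levels was seen for 2.16% of the genes tested, and toward higher levels, which none of the 6 genes showed, for 2.27%. The counts behind these levels were low, from 16 to 57 in coloboma and from 66 to 108 in normal embryos, and the exact Poisson intervals of coloboma embryo 5 (0.917 to 1.99 CPM) and normal embryo 7 (1.13 to 1.83 CPM) overlapped. These intervals cover counting error only, at a level of 95%. In TPM, a unit corrected for transcript length, vax2 ran from 0.690 to 1.81 in coloboma and from 2.17 to 3.29 in normal embryos, a separation toward lower levels that 3.81% of the genes tested showed.

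The log2 fold change of vax2 was -0.99 ± 0.26 (SE), with a 95% interval of -1.56 to -0.41 that is not adjusted for the number of genes. Its adjusted p was 0.169 (edgeR quasi-likelihood test), and it ranked 373 by p among all genes tested. A two-sided exact permutation test of its level over all splits of the 9 embryos into 5 and 4 gave p = 0.0159, not adjusted over the 6 genes; the smallest p this test allows is 0.00794. DESeq2 called it lower (log2 fold change -0.99, DESeq2 adjusted p = 0.0253), in a fit that called 2.75% of 21026 genes and 1.0% of them lower. Without coloboma embryo 3 the fold change was -0.85 and the adjusted p 0.231 (edgeR).

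For vax1 the levels were 2.43, 10.1, 13.4, 9.77 and 6.94 CPM in coloboma embryos 3 to 7, against 15.6, 7.88, 17.3 and 16.5 CPM in normal embryos 3, 4, 6 and 7. The groups overlapped through normal embryo 4, which lay below 3 of the coloboma embryos, and coloboma embryo 3 was far below all others. The log2 fold change was -0.75 ± 0.38 (SE), with a 95% interval of -1.58 to 0.07 and an edgeR adjusted p of 0.473. The two-sided exact permutation test gave p = 0.127. Without coloboma embryo 3 the fold change was -0.52 (edgeR adjusted p = 0.475), and without normal embryo 4 it was -0.96 (edgeR adjusted p = 0.330).

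**Figure D1:**
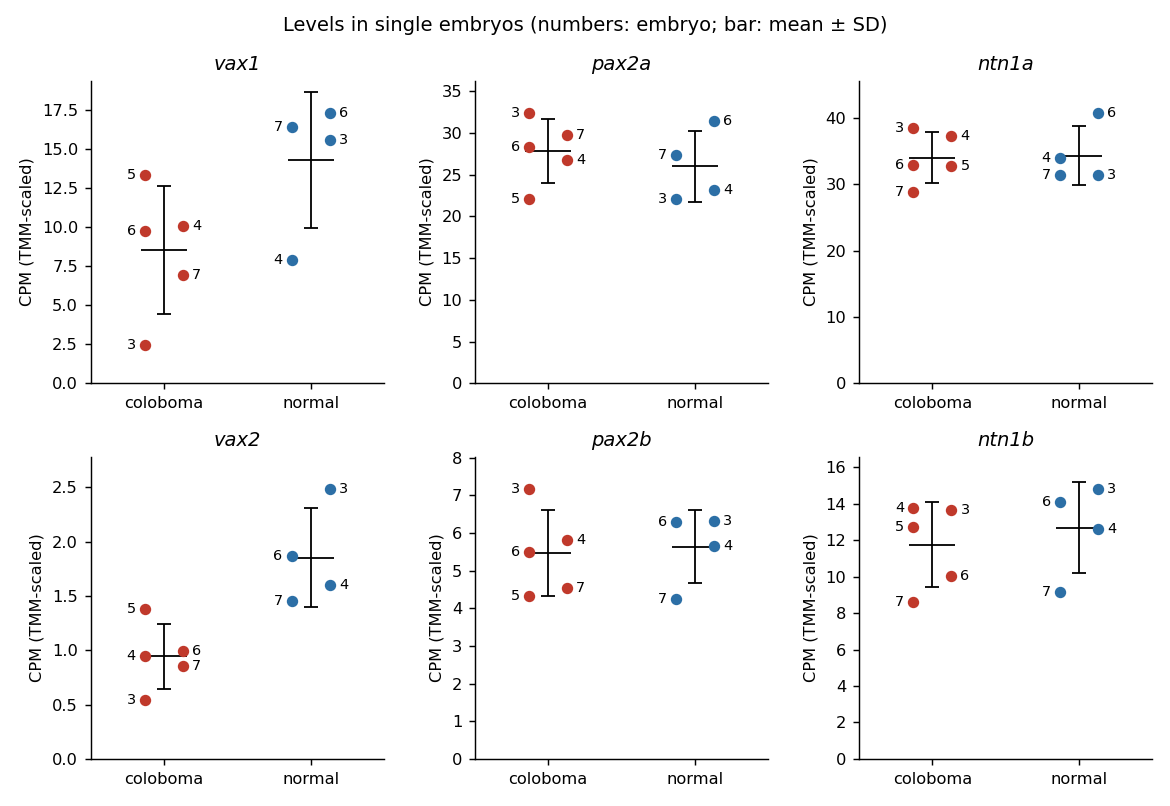
TMM-scaled CPM of each of the 6 genes in each embryo, coloboma on the left and normal on the right of each panel, with the embryo numbers beside the points and bars for mean ± SD (n = 5 and 4). The 5 coloboma embryos lie below the 4 normal embryos for vax2, between 0.540 and 1.38 CPM against 1.45 to 2.48 CPM, and the groups overlap for the other 5 genes.

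The spread of vax1 within groups was also the widest of the 6 genes. Its coefficient of variation (SD over mean) was 48.0% in coloboma and 30.3% in normal embryos, where counting alone would give 5.82% and 3.81%. For vax2 the coefficients were 32.0% and 24.6%, with 17.6% and 10.7% from counting alone, so that counting error made up a larger part. The pax2 and netrin genes varied by 11.4% to 20.7% in coloboma and 12.8% to 19.8% in normal embryos. Over all genes tested, the dispersion estimate of vax1 stood at percentile 93.2 and that of ntn1a, the steadiest of the 6, at percentile 28.1.

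Because vax genes are read from eye and forebrain, their levels were set against lists of 20 retinal progenitor genes and 23 forebrain genes. Most are transcription factors, and the lists share six3a and rx3. Levels came from whole embryos, so any expression of these genes in other tissues is included. Relative to the mean log2 level of the retinal list in the same embryo, vax2 was at -3.50 ± 0.160 (SD, n = 5) in coloboma and -3.11 ± 0.238 (SD, n = 4) in normal embryos, a difference of -0.39. This difference did not pass after adjustment over the 11 such comparisons (two-sided exact permutation p = 0.0238, adjusted p = 0.262), and it was -0.46 without coloboma embryo 3. Its size depended on the pseudocount of 0.5 CPM, which is close to the vax2 level of 0.540 CPM in coloboma embryo 3. A pseudocount 10 times smaller gave -0.63 (two-sided exact permutation adjusted p = 0.0873). One 2 times larger gave -0.25 (adjusted p = 0.402, same test). With the pseudocount of 0.5 CPM the groups overlapped through coloboma embryo 3, at -3.24, whose retinal list itself was at -1.03 relative to normal embryos. The remaining coloboma embryos ran from -3.66 to -3.51 and the normal embryos from -3.36 to -2.81.

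For vax1 the same measure differed by -0.51 between coloboma and normal embryos (two-sided exact permutation adjusted p = 0.378), and by -0.32 without coloboma embryo 3. Relative to the forebrain list it differed by -0.41 (two-sided exact permutation adjusted p = 0.419), and by -0.21 without coloboma embryo 3. Coloboma embryo 3 was lowest in both, with vax1 at -0.93 relative to the forebrain list where the other coloboma embryos ran from -0.03 to 0.21 and the normal embryos from -0.29 to 0.60. Coloboma embryo 5, the shallowest library, had the highest vax1 and vax2 levels of its group and also the highest retinal list level, 0.11 relative to normal embryos. The part that these tissue levels play in the vax values was not tested beyond these ratios.

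**Figure D2:**
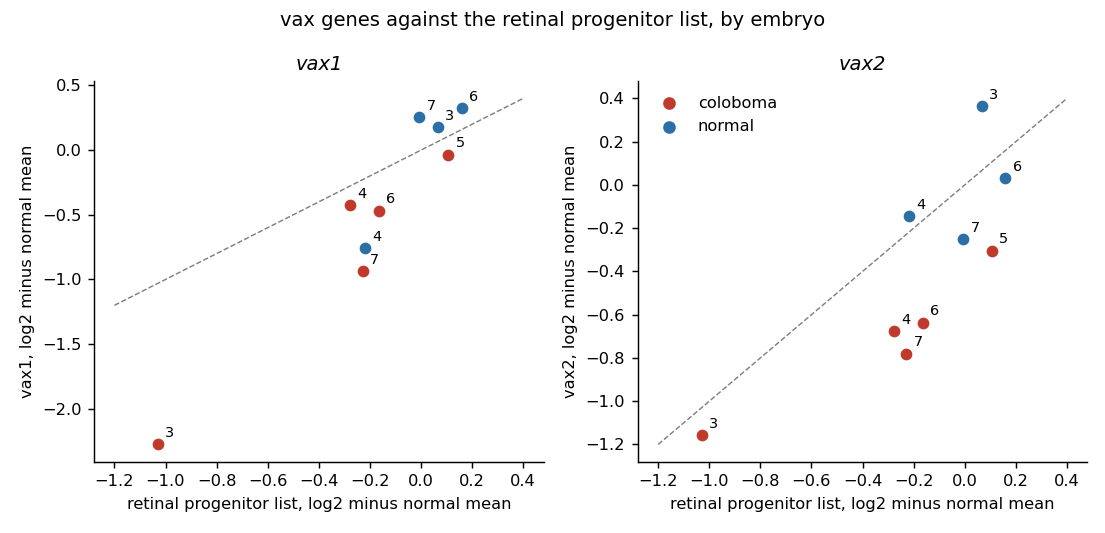
Log2 level of vax1 (left) and vax2 (right) in each embryo against the mean log2 level of 20 retinal progenitor genes, both relative to the mean of the normal embryos, with embryo numbers beside the points and a dashed line where both are equal. Coloboma embryo 3 is lowest on both axes (-1.03 for the list, -2.28 for vax1 and -1.16 for vax2), and each coloboma embryo lies below the line, as do normal embryo 4 for vax1 and normal embryos 6 and 7 for vax2. Levels are log2(CPM + 0.5), and this pseudocount shrinks the differences of vax2, which was at 0.540 CPM in coloboma embryo 3.

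Of the 20 retinal progenitor genes none passed the test over all genes, and 17 had negative fold changes, with a median log2 fold change of -0.28 beside 0.00 for all genes tested. At an unadjusted p under 0.05 (edgeR) there were 5 of 20, all lower, where 4.9% of all genes tested were lower and 6.78% higher at that level. The 3 with the smallest p were the bipolar cell and progenitor homeobox gene vsx1 (-0.47 ± 0.10, log2, SE), the proneural factor neurod4 (-0.39 ± 0.14) and the retinal homeobox gene rx2 (-0.65 ± 0.24). Under DESeq2, which called 2.75% of all genes it tested, 1 of the 20 passed. Without coloboma embryo 5, where 235 of 21273 genes passed, 1 of the 20 did. Without coloboma embryo 3 the median was -0.17, with 16 of 20 negative, 5 lower and 2 higher at an unadjusted p under 0.05 (edgeR). Of all genes tested 4.85% were lower and 6.31% higher in that fit. With 1 embryo left out, the count of lower genes ran from 2 without normal embryo 6 to 6 without coloboma embryo 5. Of all genes tested 3.37% and 6.91% were lower in those fits. The forebrain list had a median of -0.37, with 22 of 23 members negative and none past the threshold in edgeR. Coloboma embryo 3 was at -1.07 in the level of this list and the other coloboma embryos ran from -0.63 to 0.03, against -0.20 to 0.17 in normal embryos. Without coloboma embryo 3 the median was -0.17, with 22 of 23 negative. Its leading members were the interneuron factor lhx6 (-1.16 ± 0.21; edgeR adjusted p = 0.0595), dlx2a (-0.69 ± 0.16) of the subpallium and the hypothalamic factor otpb (-0.55 ± 0.14). Without coloboma embryo 5, 2 of the 23 forebrain members passed, beside 235 of 21273 genes. Under DESeq2 3 of the 23 passed, beside 2.75% of all genes it tested.

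Dorsal and ventral retina were compared because Vax2 marks the ventral side. In the ventral list of 7 measured genes, 6 fold changes were negative and the median was -0.33, beside -0.01 for the 10 genes of the dorsal list, and no gene of either passed over all genes. At an unadjusted p under 0.05 (edgeR) stood 5 genes of the ventral list, all lower, and 0 dorsal genes. Of all genes tested 4.9% were lower at that level. The difference between the lists was not tested. Of these 5, foxd1 (-0.44 ± 0.17, log2, SE) marks temporal and foxg1a nasal rather than ventral retina, which leaves the ephrin receptor genes ephb2a (-0.33 ± 0.11), ephb2b (-0.39 ± 0.15) and ephb3a (-0.30 ± 0.13). The count of 5 was 3 without coloboma embryo 3 or 7, where 4.85% and 3.74% of all genes tested were lower at that level. It was 2 without normal embryo 3 or 7 (3.43% and 6.43% of all genes) and 1 without normal embryo 6 (3.37%). Without coloboma embryo 3 the median of the ventral list was -0.31 and that of the dorsal list 0.02. The ventral retinoic acid enzyme gene aldh1a3 was at -0.12 ± 0.21, the cytochrome gene cyp1b1 of the same list at 0.22 ± 0.34 and the dorsal T-box gene tbx5a at -0.04 ± 0.21. The 3 dorsal genes with the smallest p were the retinoic acid enzyme gene aldh1a2 (0.11 ± 0.09), tbx3a (0.12 ± 0.10) and the BMP antagonist gene bambia (0.06 ± 0.08). Ephrin receptors and the forkhead genes are also expressed in the brain, and the ventral list was lowest in coloboma embryo 3, at -0.68, with the others between -0.31 and 0.01. Normal embryos ran from -0.24 to 0.18.

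**Figure D3:**
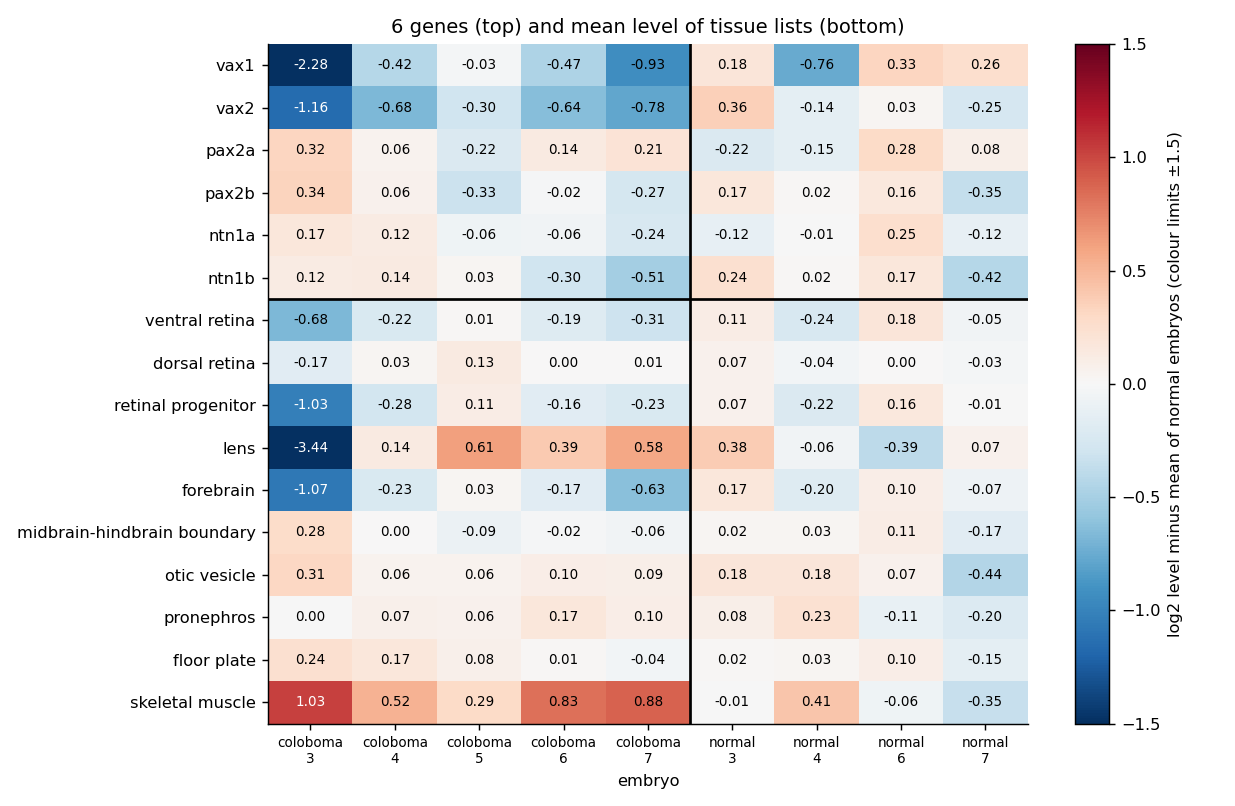
Log2 level of the 6 genes and mean log2 level of 10 tissue lists in each embryo, relative to the mean of the normal embryos, with coloboma embryos on the left and the colour scale cut at ±1.5. Coloboma embryo 3 has the lowest vax1 (-2.28), vax2 (-1.16), lens (-3.44), retinal progenitor (-1.03) and forebrain (-1.07) values, while its pax2a (0.32) and pax2b (0.34) values are above the normal mean. Levels are log2(CPM + 0.5), and this pseudocount shrinks the differences of vax2, which was at 0.540 CPM in coloboma embryo 3.

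Neither pax2 gene passed the test, and both had fitted levels close to the normal ones. For pax2a the levels were 32.4, 26.8, 22.1, 28.3 and 29.8 CPM in coloboma embryos 3 to 7, against 22.0, 23.2, 31.4 and 27.3 CPM in normal embryos 3, 4, 6 and 7. The groups covered the same range, with coloboma embryo 3 the highest of all 9. The log2 fold change was 0.10 ± 0.13 (SE), with a 95% interval of -0.19 to 0.39 and an edgeR adjusted p of 0.80. Without coloboma embryo 3 it was 0.044, and with any 1 embryo left out it ran from 0.03 to 0.20. The interval corresponds to levels of 0.880 to 1.31 times the normal one.

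For pax2b the levels were 7.16, 5.82, 4.34, 5.48 and 4.54 CPM in coloboma embryos 3 to 7, against 6.32, 5.65, 6.29 and 4.25 CPM in normal embryos 3, 4, 6 and 7. Here too coloboma embryo 3 was highest, and the lowest level was in normal embryo 7. The log2 fold change was -0.04 ± 0.17 (SE), with a 95% interval of -0.42 to 0.34 and an edgeR adjusted p of 0.948. Its sign turned without coloboma embryo 5 or 7 or normal embryo 3 or 6, with values up to 0.026, and it was -0.15 without coloboma embryo 3. A two-sided exact permutation test gave p = 0.476 for pax2a and p = 0.786 for pax2b.

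At this stage pax2 genes are also active at the midbrain-hindbrain boundary, in the ear and in the kidney, and lists of those tissues were measured beside them. None of the 16 boundary genes, 14 ear genes and 16 kidney genes passed over all genes. Their median log2 fold changes were 0.05, 0.14 and 0.02. At an unadjusted p under 0.05 (edgeR) 3 ear genes were higher and 0 lower, where 6.78% of all genes tested were higher. Normal embryo 7 had the lowest ear list level, -0.44 relative to the normal mean. Without it the ear median was 0.07, with 0 genes higher and 2 lower, where 6.43% of all genes were lower. Without normal embryo 6, 0 ear genes were higher and 1 lower, where 3.37% of all genes were lower. Without coloboma embryo 3 the ear median was 0.08. In that fit 1 ear gene was higher and 1 lower at that level, beside 6.31% and 4.85% of all genes. The boundary median was then 0.0015, with 8 positive and 8 negative, and 2 genes were lower at that level, beside 4.85% of all genes. In the boundary list the 3 genes with the smallest p were the FGF feedback gene spry4 (0.23 ± 0.11, log2, SE), the signal gene fgf8a (0.17 ± 0.10) and the Hairy-related gene her5 (0.51 ± 0.32). In the ear list they were the otoconin gene oc90 (0.33 ± 0.13), six1b (0.42 ± 0.18) and eya1 (0.21 ± 0.09). Those of the kidney list were lhx1a (-0.40 ± 0.11), the bicarbonate transporter gene slc4a4a (0.87 ± 0.26) and the endocytic receptor gene lrp2a (0.19 ± 0.10). All were measured in whole embryos, not in these organs. DESeq2 called 2 of the 16 kidney genes, beside 2.75% of all genes it tested.

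Relative to the boundary list, pax2a differed by 0.08 between coloboma and normal embryos and pax2b by -0.07 (two-sided exact permutation adjusted p = 0.595 for each). Relative to the retinal list the differences were 0.42 and 0.28 (adjusted p = 0.437 and 0.595, two-sided exact permutation), but without coloboma embryo 3, where the retinal list was lowest, they were 0.19 and 0.0027. The relatives pax5 and pax8, which act with Pax2 at the boundary and in the ear, had log2 fold changes of 0.26 ± 0.19 and -0.15 ± 0.28 (SE; edgeR adjusted p = 0.662 and 0.869). Normal embryo 7, lowest in pax2b, was also lowest in the mean of these 2 relatives, at -0.67 relative to the normal mean.

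Of the netrin genes, ntn1a had levels of 38.5, 37.3, 32.8, 32.9 and 28.8 CPM in coloboma embryos 3 to 7, against 31.5, 33.9, 40.7 and 31.4 CPM in normal embryos 3, 4, 6 and 7. The groups overlapped, with the lowest level in coloboma embryo 7 and the highest in normal embryo 6. It had the narrowest interval of the 6 genes, a log2 fold change of -0.01 ± 0.11 (SE) with a 95% interval of -0.26 to 0.23, or 0.838 to 1.17 times the normal level (edgeR adjusted p = 0.976). The sign turned without coloboma embryo 7 (0.042) or normal embryo 6 (0.072).

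For ntn1b the levels were 13.6, 13.8, 12.7, 10.1 and 8.59 CPM in coloboma embryos 3 to 7, against 14.8, 12.6, 14.1 and 9.18 CPM in normal embryos 3, 4, 6 and 7. Low values stood in both groups, in coloboma embryo 7 and normal embryo 7. The log2 fold change was -0.11 ± 0.17 (SE), with a 95% interval of -0.50 to 0.27 and an edgeR adjusted p of 0.840. With 1 embryo left out it ran from -0.24 without normal embryo 7 to -0.016 without coloboma embryo 7. The two-sided exact permutation test gave p = 0.929 for ntn1a and p = 0.619 for ntn1b.

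Among 12 genes of the floor plate, the ventral midline of the neural tube where netrin 1 is strongest, none passed over all genes, and the median log2 fold change was 0.08. The 3 with the smallest p were the heparan sulfatase gene sulf1 (0.25 ± 0.10, log2, SE), the collagen gene col2a1a (0.59 ± 0.28), which is far more widely expressed, and ctgfa (0.22 ± 0.13). Relative to this list ntn1a differed by -0.10 and ntn1b by -0.20 between coloboma and normal embryos, neither of them past adjustment (two-sided exact permutation adjusted p = 0.378 and 0.419). Without normal embryo 6 the ntn1a difference was -0.053, and for ntn1b it was -0.12 without normal embryo 3 and -0.13 without coloboma embryo 7.

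Netrin receptors convey attraction through DCC and neogenin and repulsion through UNC5 proteins, and DSCAM proteins also bind netrin. None of the 12 receptor genes passed over all genes, with 6 positive and 6 negative fold changes and a median of 0.00. The most abundant by CPM were neo1 (-0.05 ± 0.08, log2, SE), unc5b (-0.01 ± 0.09) and a second neogenin gene listed as NEO1 (2 of 2) (0.02 ± 0.13). The gene with the smallest p was unc5c, at 1.83 ± 0.403 CPM (SD, n = 5) in coloboma and 2.75 ± 0.941 CPM (SD, n = 4) in normal embryos. Its log2 fold change of -0.58 ± 0.26 (SE) had an edgeR adjusted p of 0.421. It was the only receptor with an unadjusted p under 0.05 (edgeR), a level reached by 11.7% of all genes tested. The DSCAM genes were at -0.29 ± 0.17 (dscaml1), 0.17 ± 0.12 (dscama) and 0.15 ± 0.17 (dscamb). The gene listed as DCC (2 of 2) was at -0.06 ± 0.25, unc5a at -0.38 ± 0.45, unc5da at 0.03 ± 0.15, unc5db at 0.01 ± 0.30 and the row UNC5C (1 of 2) at 0.08 ± 0.37.

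Of 5 other netrin family ligands none passed. The netrin G gene ntng1a, for a membrane-anchored relative, was at -0.34 ± 0.22 (log2, SE), ntng2a at 0.24 ± 0.16 and ntn2 at 0.10 ± 0.16. Per transcript length, ntn2 averaged 2.86 TPM in coloboma and 2.87 TPM in normal embryos, below both netrin 1 genes.

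**Figure D4:**
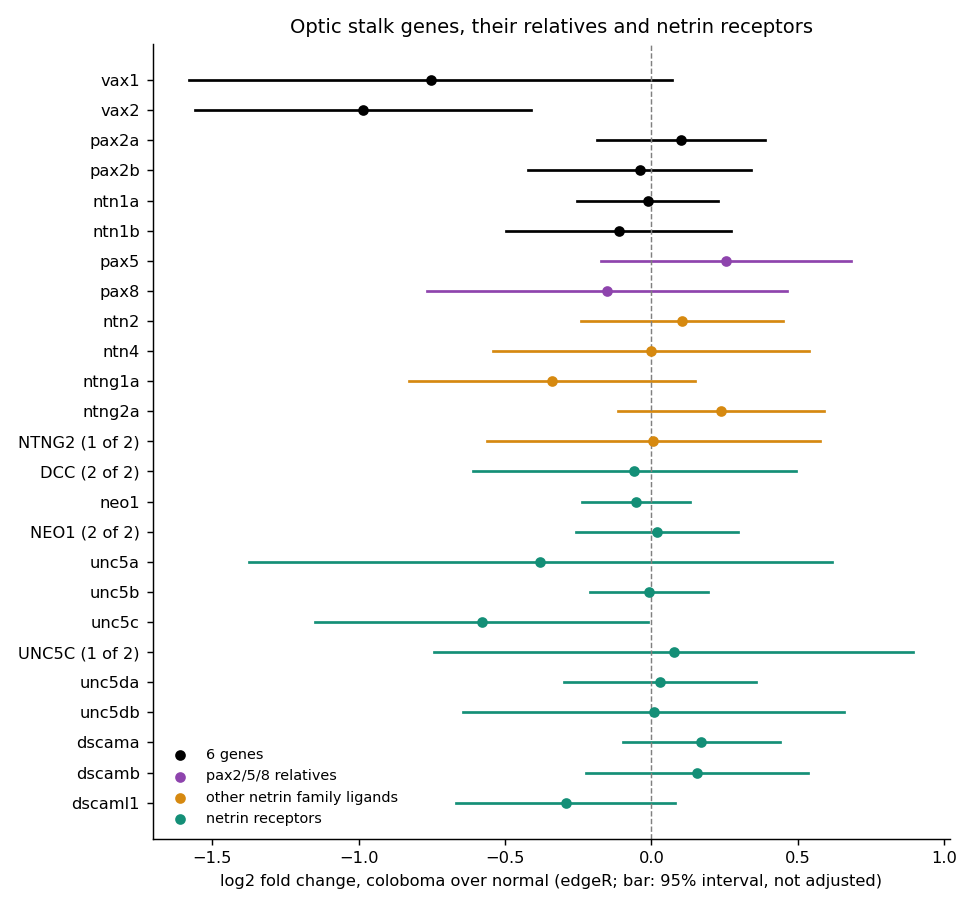
Log2 fold change, coloboma over normal, of the 6 genes, of pax5 and pax8, of 5 other netrin family ligands and of 12 netrin receptor genes, with 95% intervals that are not adjusted for the number of genes (edgeR). The intervals of vax2 (-1.56 to -0.41) and of unc5c exclude 0, and no gene shown passed over all genes.

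On the TPM scale, which allows genes to be compared, pax2a had the highest mean over the 9 embryos, 16.7 ± 1.94 TPM (SD, n = 9). It was followed by ntn1a at 10.3 ± 1.37, ntn1b at 10.02 ± 1.81, vax1 at 6.53 ± 3.15, pax2b at 3.60 ± 0.752 and vax2 at 1.88 ± 0.835 TPM. The lowest pax2a value, 14.3 TPM, was above every value of the other 5 genes. Neighbours further down overlapped in range: ntn1a was above ntn1b in 5 of 9 embryos, and the 2 netrin genes differed by less than their spread. Within embryos ntn1b was above vax1 in 8 of 9, the exception being a normal embryo. In 8 of 9 embryos vax1 was above pax2b, the exception being coloboma embryo 3, and pax2b was above vax2 in 9 of 9.

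**Figure D5:**
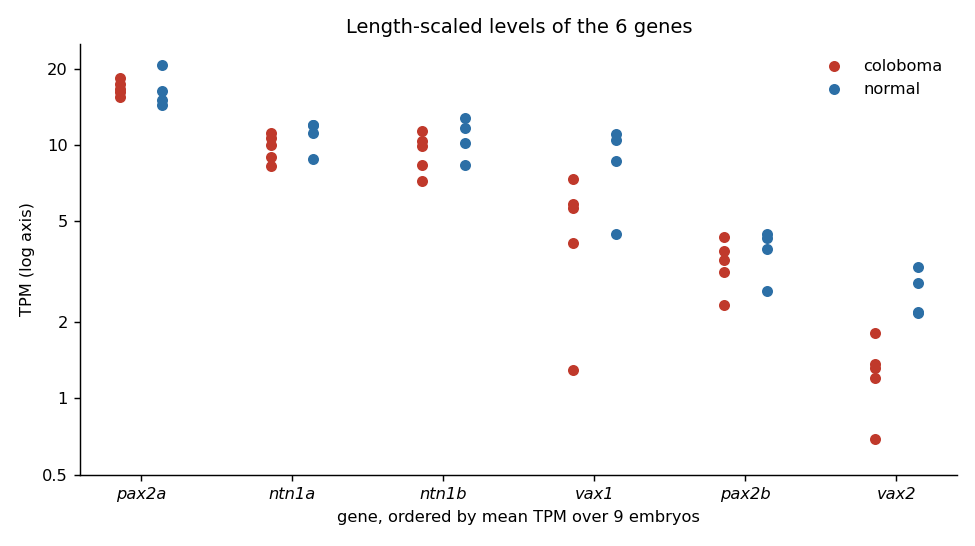
TPM on a log axis of the 6 genes in each embryo, ordered by the mean over all 9, with coloboma embryos to the left of normal embryos at each gene. The pax2a values (14.3 to 20.8 TPM) lie above those of all other genes shown, and vax1 has the widest range, from 1.29 to 11.01 TPM.

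The balance within each gene pair was measured as the log2 ratio of TPM in the same embryo, which does not depend on depth. This ratio does move with the transcript lengths used for TPM. The ratio of vax2 to vax1 averaged -1.70 ± 0.514 (SD, n = 5) in coloboma and -1.62 ± 0.536 (SD, n = 4) in normal embryos. In linear terms vax2 was 0.535 times vax1 in coloboma embryo 3 and 0.226 to 0.293 times vax1 in the other coloboma embryos, against 0.211 to 0.487 times in normal embryos. For pax2b to pax2a the means were -2.28 ± 0.305 (SD, n = 5) in coloboma and -2.10 ± 0.442 (SD, n = 4) in normal embryos. For ntn1b to ntn1a they were -0.06 ± 0.105 (SD, n = 5) in coloboma and -0.04 ± 0.155 (SD, n = 4) in normal embryos. None of the 3 ratios passed the test between groups (two-sided exact permutation adjusted p = 0.833 for each). With so few embryos this does not show that the ratios are equal. For pax2b to pax2a the difference between the groups was -0.18 in TPM and -0.15 in CPM. For ntn1b to ntn1a the difference was -0.03 in TPM and -0.096 in CPM.

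The pax2 genes and ntn1a differed from the other 3 genes in how their TPM followed their counts. TPM divided by CPM, taken relative to the median gene of each embryo, falls as the transcripts to which reads were assigned become longer. For vax1, vax2 and ntn1b it varied by 0.832% to 0.849% (coefficient of variation over 9 embryos), close to the median of 0.901% over 16541 genes above 1 TPM in every embryo. For pax2a, pax2b and ntn1a it varied by 9.54%, 11.3% and 13.4%, and the ntn1a value was 1.42 times higher in the highest embryo than in the lowest. The ranges of coloboma and normal embryos overlapped for all 6 genes, for ntn1a with 0.358 to 0.439 in coloboma and 0.335 to 0.477 in normal embryos. Which transcripts were used was not given in the files, so a shift between transcripts and uncertainty in assigning reads cannot be told apart.

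The profile of each gene over the 9 embryos was compared with those of 15464 other named genes by the root mean square difference of mean-centred log2 levels, where a small value means a like profile. The genes nearest to vax1 were fezf1, a forebrain zinc-finger gene (0.19), and myt1la, a gene of neuronal differentiation (0.22), against a spread of 0.77 for vax1 about its own mean. In coloboma embryo 3 fezf1 had 1.69 CPM, against 4.28 to 12.3 CPM in the other coloboma and 6.65 to 11.5 CPM in the normal embryos. Like vax1, fezf1 was lowest in coloboma embryo 3 and, among normal embryos, in embryo 4, a likeness that follows from its choice by profile. Nearest to vax2 were the LIM-homeobox genes lhx9 (0.11) and lhx5 (0.12), which pattern the forebrain, against an own spread of 0.44.

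The levels of lhx9 were 9.59, 14.0, 20.8, 14.3 and 13.5 CPM in coloboma embryos 3 to 7, against 24.6, 19.4, 22.5 and 17.8 CPM in normal embryos 3, 4, 6 and 7. Its order was that of vax2 in that coloboma embryo 5 was the highest of its group and embryo 3 the lowest. This too follows from the choice of lhx9 by profile. The groups overlapped for lhx9 and its log2 fold change was -0.55 ± 0.18 (SE; edgeR adjusted p = 0.277). The pseudocount of 0.5 CPM shrinks the profile of a gene as low as vax2, so that genes with smaller fold changes can stand near it. For the other 4 genes, whose own spread was 0.15 to 0.26, the nearest were the Wnt co-receptor gene lrp5 (0.05) and the splicing factor gene rbfox2 (0.06) for pax2a, mntb (0.07) and KLHL7 (0.08) for pax2b, the tyrosine phosphatase gene ptpn4b (0.06) and ephx4 (0.08) for ntn1a, and the ectodysplasin gene eda (0.10) and the protocadherin gene pcdh2aa1 (0.11) for ntn1b. The mean level of ephx4 was 0.376 CPM, below the pseudocount of 0.5 CPM, which shrinks its profile as well. The distance between vax1 and vax2 themselves was 0.49, larger than the spread of vax2 about its mean.

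Upstream of these genes, the list of hedgehog, FGF and transcriptional regulators of the optic stalk held 23 genes, 12 positive and 11 negative. Their median log2 fold change was 0.01 and none was past the threshold. There were 3 lower and 0 higher at an unadjusted p under 0.05 (edgeR), where 4.9% of all genes tested were lower and 6.78% higher. The hedgehog ligand genes shha and shhb were at 0.11 ± 0.10 and 0.04 ± 0.14 (log2, SE; edgeR adjusted p = 0.711 and 0.939). The 3 members with the smallest p were sox11b (-0.39 ± 0.09) and sox11a (-0.30 ± 0.10), SoxC factors of neural differentiation that limit hedgehog signalling in the zebrafish eye, and the nuclear receptor gene nr2f1b (-0.53 ± 0.15). DESeq2 called 2 of the 23, beside 2.75% of all genes it tested. In the list of 24 other choroid fissure genes, 13 were positive and 11 negative, the median was 0.02 and none passed. At the same unadjusted level 5 of the 24 were lower and 0 higher. The count of lower genes was 0 without normal embryo 6 (3.37% of all genes) and 1 without normal embryo 3 (3.43%). It was 2 without normal embryo 7 (6.43%) or coloboma embryo 7 (3.74%). Without coloboma embryo 3 the median was -0.0082, with 10 positive and 14 negative. In that fit 3 were lower at the unadjusted level, beside 4.85% of all genes tested. This list shares genes with the ventral, dorsal and retinal lists above. Its members with the smallest p were foxd1, ephb2b and foxg1a (-0.47 ± 0.20), and the fissure genes znf703 and znf503 were at 0.02 ± 0.13 and 0.17 ± 0.16.

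Genes of skeletal muscle, a tissue far from the eye, were measured as a tissue list as well. All 18 measured had positive fold changes, with a median of 0.66, and 16 were higher at an unadjusted p under 0.05 (edgeR), where 6.78% of all genes tested were. The list level ran from 0.29 to 1.03 in coloboma and from -0.35 to 0.41 in normal embryos, so that the groups overlapped through coloboma embryo 5 and normal embryo 4. Only the fast myosin gene myhz1.2 passed over all genes (log2 fold change 0.80 ± 0.13, SE; edgeR adjusted p = 0.0490). Next by p were the fast myosin light chain gene mylpfb (0.85 ± 0.17) and the troponin T gene tnnt3a (0.61 ± 0.14). With library size alone, or without any 1 embryo other than normal embryo 4 or coloboma embryo 5, 0 of the 18 passed. Without coloboma embryo 5, 4 of the 18 passed, beside 235 of 21273 genes. DESeq2 called 11 of the 18, beside 2.75% of all genes it tested (1.75% higher in coloboma embryos). Among lens genes the smallest p belonged to cryaa (-1.38 ± 0.61), foxe3 (0.38 ± 0.24) and cryba1a (0.42 ± 0.50), none past the threshold. The lens list had a median of 0.28, with 0 genes higher and 1 lower at an unadjusted p under 0.05 (edgeR). Without coloboma embryo 3 the median was 0.55, with 14 of 15 positive. In that fit 10 of the 15 were higher and 1 lower at the same level, beside 6.31% and 4.85% of all genes tested. The part of muscle or lens content in the vax values was not tested.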

How the data were processed

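The authors deposited 2 tables over the same 22337 gene symbols and 9 embryos, and 0 columns were left unmapped. The deposited values of the count table are whole numbers. With RSEM named in the processing notes, the deposited counts were treated as estimated counts per gene, rounded to whole numbers by the authors before deposit. The deposited TPM values served for levels between genes and as an alternative. Per the submitters' processing notes the tools were CASAVA 1.8.2, RSEM 1.2.18 and Bowtie 1.1.1, with genome build Zv9. The annotation was not given in the sources used here. RSEM-type estimators divide reads between similar transcripts by a model, which matters for paralogs such as pax2a and pax2b. Per the labels, libraries were made with the TruSeq kit, version 2.

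Counts were fitted across all genes with edgeR 4.0.16 in R 4.3.3 (filterByExpr with a minimum count of 10, TMM scaling, quasi-likelihood F test, no covariate, Benjamini-Hochberg, threshold 0.05), and 21293 genes were tested. SE is the fold change over the root of F. Exact permutation tests used log2(CPM + 0.5) or log2(TPM + 0.1) and Python 3.11.15. Alternatives used DESeq2 1.42.0, limma 3.58.1 voom, limma on TPM, other scalings, filters and pseudocounts, each embryo left out and a block on the embryo number. Embryos of a group differed beyond sampling noise (chi-square per degree of freedom 26.2 to 75.7). The steps were tested on simulated data. No library date or clutch was given, so no batch could be formed.

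The 6 genes and the 15 gene lists were chosen with earlier results of these data known. Of the list entries, 206 matched by symbol, 7 by a synonym in the RefSeq table of GRCz12tu and 4 by a name in the files, 2 repeated a gene and 11 were not matched. From each list the 3 genes with the smallest p were named, with all netrin receptors, pax5, pax8, shha, shhb, fgf8a, aldh1a3 and tbx5a whatever their values, and for each of the 6 genes the 2 with the nearest profile. Other genes (myhz1.2 as the only call, lhx9 levels, ephb3a, cyp1b1, znf703, znf503, unc5b and neo1 as the most abundant) were picked out after their values were seen.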

Additional observations from a re-analysis of the deposited data

Results flagged for a closer look

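Dixon's test for a single outlying embryo was applied to 70 sets of 4 or 5 values, and 5 stood out, where chance gives about 1 in 20. Coloboma embryo 3 was outlying in 4 of them. Its vax1 level relative to the forebrain list was -0.93, against -0.03 to 0.21 in the other coloboma embryos. Its lens list level was -3.44 relative to the normal mean, against 0.14 to 0.61. Its midbrain-hindbrain boundary list was at 0.28, against -0.09 to 0.00, and its ear list at 0.31, against 0.06 to 0.10. Normal embryo 3 was outlying in pax2a relative to the retinal progenitor list, at 0.10 against 0.46 to 0.51 in the other normal embryos.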

How the results depend on the processing

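The count of genes passing was 578 with DESeq2 and 17 with the replicate block, beside 44, and ran from 21 to 235 with 1 embryo left out. Same-numbered embryos deviated with correlations of -0.07 to 0.07, and 1 of 4 correlated best with its own number. These values gave no sign of pairing by number, but so few correlations cannot exclude it. The fold change of vax2 passed with DESeq2 (-0.99) and in none of the other 17 settings, where it ran from -1.13 to -0.68. The fold changes of vax1, pax2a and ntn1b kept their sign and side of the threshold in all 18 settings, but not their size. With 1 embryo left out they ran from -0.96 to -0.52, from 0.03 to 0.20 and from -0.24 to -0.016, and with library size alone pax2a was at 0.012. For pax2b the sign turned with the replicate block (0.028), and with 1 embryo left out it ran from -0.15 to 0.026, and for ntn1a from -0.061 to 0.072. The permutation differences ran, with 1 embryo left out, from -0.16 to 0.027 for pax2b and -0.058 to 0.071 for ntn1a. The ratios ran from -0.30 to 0.12 for vax2 to vax1, -0.33 to -0.034 for pax2b to pax2a and -0.093 to 0.018 for ntn1b to ntn1a. The difference of ntn1b relative to the retinal list ran from -0.021 to 0.34 and that of pax2a relative to the boundary list from -0.0027 to 0.16. For vax2 relative to the retinal list, other pseudocounts gave differences from -0.63 to -0.25.

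DESeq2 called 2 stalk regulators, 1 retinal, 3 forebrain, 2 kidney and 11 muscle genes, beside 2.75% of all genes it tested. Library size alone called 0 muscle genes. With 1 embryo left out, calls ran from 0 to 1 in the retinal, 0 to 2 in the forebrain and 0 to 4 in the muscle list. The fewest counts of the 6 genes were those of vax2, from 16 to 108 an embryo, so its levels have the widest counting intervals.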
